A study of Mus musculus with 8 samples.

Results

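Mitochondrial ribosomal protein genes, the genes with the symbols Mrpl and Mrps followed by a number, were compared between induced regulatory T cells (iTreg) with and without neuropilin-1 (Nrp-1) on their surface. Every such symbol was taken except pseudogenes, which gave 76 of the 23361 genes in the deposited table. Of these 76 genes, 7 were higher (9.21%) and 13 lower (17.1%) in Nrp-1+ iTreg, against 20.9% and 20% of all genes tested, and 56 did not pass the test. With the values rescaled to a fixed sum outside short RNA genes, 15 were higher and 5 lower, and the calls over all genes moved the same way, to 26.3% higher and 9.29% lower. The group means of the called genes differed by 5.22% to 25.2%. The largest decreases were those of Mrps18b, Mrpl38 and Mrpl32 and the largest increases those of Mrpl51, Mrpl13 and Mrpl18.

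The mitochondrial ribosome, or mitoribosome, sits in the mitochondrial matrix and translates the few proteins encoded by mitochondrial DNA, which are subunits of the respiratory chain and of ATP synthase. Its RNAs come from mitochondrial DNA, whereas its proteins are encoded in the nucleus, made in the cytosol and imported. Mrpl genes encode proteins of the large subunit, which joins the amino acids, and Mrps genes mostly proteins of the small subunit, which reads the messenger RNA. Some of them have counterparts in bacterial ribosomes, while others are found in mitochondria only. T cells that are activated and divide enlarge their mitochondria and need this translation machinery.

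RNA sequencing was performed on 8 libraries, 4 of Nrp-1+ iTreg and 4 of Nrp-1- iTreg. The cells of both groups were wild-type (WT) and carried a Foxp3-RFP reporter, in which a red fluorescent protein marks cells expressing Foxp3, the transcription factor of regulatory T cells. Naïve CD4+ T cells (CD44low CD62Lhigh) were cultured with anti-CD3/CD28 beads, IL-2 (50 U/ml per the labels) and TGF-β at 2 ng/ml, and viable CD4+ Foxp3-RFP+ cells were then sorted by Nrp-1. The labels give 3 days of culture in one field and day 5 in another, and they name a different library kit from the paper, which describes a directional polyA kit. The libraries are labelled as biological replicates 1 to 4 without saying whether animals or cultures were separate, so p-values measure the spread between these libraries only. Values are FPKM as deposited, which are numbers of fragments scaled to transcript length and to the mapped fragments of the library. They were tested on log2(FPKM + 1) by limma over the 10467 genes with a mean of at least 1 FPKM, and a gene was called when its Benjamini-Hochberg adjusted p was under 0.05. Differences are given as log2 fold changes of Nrp-1+ against Nrp-1- iTreg on that scale, which understates changes of low genes.

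Nrp1 itself averaged 21.5 ± 0.709 FPKM in the Nrp-1+ and 4.95 ± 0.262 FPKM in the Nrp-1- libraries (SD, n = 4 each), in the direction of the sort. Foxp3 and Cd4 were above 100 FPKM on average in both groups. In sum, B cell markers reached 5.21 to 5.91 FPKM in Nrp-1+ and 4.01 to 5.80 FPKM in Nrp-1- iTreg, nearly all of it Cd79b, with 2 of the 5 genes at 0 in every library. Those of NK and CD8 T cells reached 7.20 to 8.87 and 9.44 to 11.3 FPKM, nearly all of it Cd8b1. Erythroid markers reached 5.49 to 8.03 and 2.05 to 3.32 FPKM, nearly all of it Hba-a1. Myeloid markers stayed at or under 0.503 FPKM and dendritic cell markers at or under 0.377 FPKM. All 25 genes of a proliferation list were higher in Nrp-1+ iTreg (median log2 fold change 0.88), against 20.9% of all genes tested. Short RNA genes (microRNA, snoRNA and the like) held 1.77% to 38.9% of the summed FPKM of single Nrp-1+ libraries and 4.45% to 43.9% of Nrp-1- libraries. The part of these differences in the results for mitochondrial ribosomal proteins was not tested, and in such bulk samples fewer cells of a type and less RNA per cell cannot be told apart.

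The regions before the transcription start of 5 genes that changed are shown, since all of these nuclear genes have to be expressed together for a complete mitoribosome. The genes were the ones with the largest changes, up to 3 in each direction, for which RefSeq (GRCm38.p6) gave a promoter entry with at least 100 bases outside annotated UTRs, a condition that 8 called genes met. Sequences are given 5′ to 3′ on the strand of the gene, and capitals mark a motif match. Mrpl51 (higher) is shown at chr6:125192015-125192164, plus strand. Mrpl17 (higher) is shown at chr7:105811100-105811249, minus strand. Mrps18b (lower) is shown at chr17:35916441-35916565, minus strand. Mrps10 (lower) is shown at chr17:47369047-47369196, plus strand. Mrpl9 (lower) is shown at chr3:94443175-94443324, plus strand.
Mrpl51: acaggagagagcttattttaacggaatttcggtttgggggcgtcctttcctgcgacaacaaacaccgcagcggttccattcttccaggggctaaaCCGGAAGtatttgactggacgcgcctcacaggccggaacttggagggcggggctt
Mrpl17: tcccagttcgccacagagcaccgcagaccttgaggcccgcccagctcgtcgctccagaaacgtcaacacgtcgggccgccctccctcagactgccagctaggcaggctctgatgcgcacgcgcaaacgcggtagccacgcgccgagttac
Mrps18b: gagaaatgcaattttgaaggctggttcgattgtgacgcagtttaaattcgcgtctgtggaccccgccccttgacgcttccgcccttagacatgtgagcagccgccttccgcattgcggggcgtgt
Mrps10: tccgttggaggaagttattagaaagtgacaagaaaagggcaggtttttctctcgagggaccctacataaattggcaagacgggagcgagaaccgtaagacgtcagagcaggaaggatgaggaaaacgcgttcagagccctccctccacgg
Mrpl9: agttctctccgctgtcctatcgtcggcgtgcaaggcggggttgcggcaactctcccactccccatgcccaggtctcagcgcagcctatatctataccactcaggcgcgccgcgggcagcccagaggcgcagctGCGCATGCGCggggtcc

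The capitals in Mrpl51 are CCGGAAG, the core of the sites of ETS factors such as GABPA, beginning 90 bases before the start. Those in Mrpl9 are matches on both strands to GCGCATG, part of the palindromic site of the nuclear respiratory factor NRF1, the first beginning 28 bases before it. The other 3 stretches held none of the 4 motifs searched, although outside the stretch shown the searched windows of Mrpl17 and Mrps18b each held both CCGGAAG and GCGCATG, and that of Mrpl9 held ATGGCGG. Promoter entries were found for 67 of the 76 genes and were searched on both strands, from 250 bases before to 50 after the start. CCGGAAG was found in 24 of the 67 (35.8%), against 23.1% of the promoters of tested genes and 9.93% of those of all genes in the table. The letters ATGGCGG, from the site of the factor YY1, were found in 13 (19.4%), against 10.7% and 4.69%. GCGCATG was found in 8 (11.9%), against 8.94% and 4.41%. The E-box CACGTG, bound by MYC and related factors, was found in 5 (7.46%), against 12.6% and 8.09%. The letters of GCGCATG and ATGGCGG can overlap, but in these 67 promoters matches of different motifs did not. A match describes the sequence and not a site in use. Among the genes with an entry, the searched windows held CCGGAAG in 3 of the 6 called higher, 2 of the 9 called lower and 19 of the 52 not called. It was thus found beside both directions of change. The windows held GCGCATG in 1 of the 6 called higher, 3 of the 9 called lower and 4 of the 52 not called, and ATGGCGG in 1, 3 and 9 of these. These splits were not tested.

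All 76 genes were expressed in both groups and passed the filter on low values, with means over the 8 libraries from 3.39 FPKM (Mrpl17) to 262.8 FPKM (Mrps21) and a median of 35.5 FPKM. The level is given per length of transcript, and between the highest and the lowest gene it differed 77.6-fold. Genes with longer transcripts tended to have lower levels (Spearman rho -0.31 with annotated transcript length, a description over the 76 genes), and Mrpl17, the lowest, had the longest transcript (7300 bases). The lengths the authors divided by may differ from these, which limits the order of the levels. Only 7 genes reached 100 FPKM and 9 were under 10 FPKM. The highest was Mrps21, a small-subunit protein, with 256.6, 254.7, 270.1 and 242.2 FPKM in the Nrp-1+ and 247.3, 266.3, 283.7 and 281.3 FPKM in the Nrp-1- libraries. These groups overlapped (log2 fold change -0.07, adjusted p = 0.272 by limma). Next came Mrpl33, a small protein of the large subunit, at 240.3 ± 11.5 against 242.5 ± 13.6 FPKM (adjusted p = 0.863 by limma), then Mrpl52 at 203.1 ± 7.47 against 198.4 ± 13.3 FPKM (adjusted p = 0.599), and neither passed the test. Mrpl30, which followed, was lower in Nrp-1+ iTreg and is described with the decreases. Mrps16, a small-subunit protein with a bacterial counterpart, had 144.7, 141.6, 146.7 and 138.7 FPKM in Nrp-1+ and 138.8, 155.4, 157.1 and 162.2 FPKM in Nrp-1- iTreg. The lowest Nrp-1- library of Mrps16 lay among the Nrp-1+ libraries, and the gene did not pass (adjusted p = 0.128 by limma). Mrps21 and Mrpl33 overlapped in their ranges over the libraries, and so did Mrpl52 and Mrpl30, whereas each Mrps16 value was below every value of Mrpl30.

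At the low end stood Mrpl17, followed by Mrpl19 at 6.40 ± 0.204 against 6.49 ± 0.220 FPKM, Mrpl11 at 6.66 ± 0.470 against 6.31 ± 0.265 FPKM, Mrpl35 at 6.42 ± 0.582 against 6.74 ± 0.288 FPKM and Mrps27 at 7.23 ± 0.651 against 6.58 ± 0.243 FPKM. The last 4 overlapped one another and did not pass the test between the groups (adjusted p of 0.740, 0.322, 0.434 and 0.152 by limma). Of these, Mrps27 had the widest gap between groups, with 6.52, 7.90, 7.64 and 6.85 FPKM in Nrp-1+ and 6.81, 6.73, 6.54 and 6.26 FPKM in Nrp-1- iTreg. Replicates varied little, and the median coefficient of variation over the 76 genes was 4.56% in Nrp-1+ and 5.34% in Nrp-1- iTreg. The widest spread was that of Mrps10 in Nrp-1+ iTreg (19.3%).

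**Figure D1:**
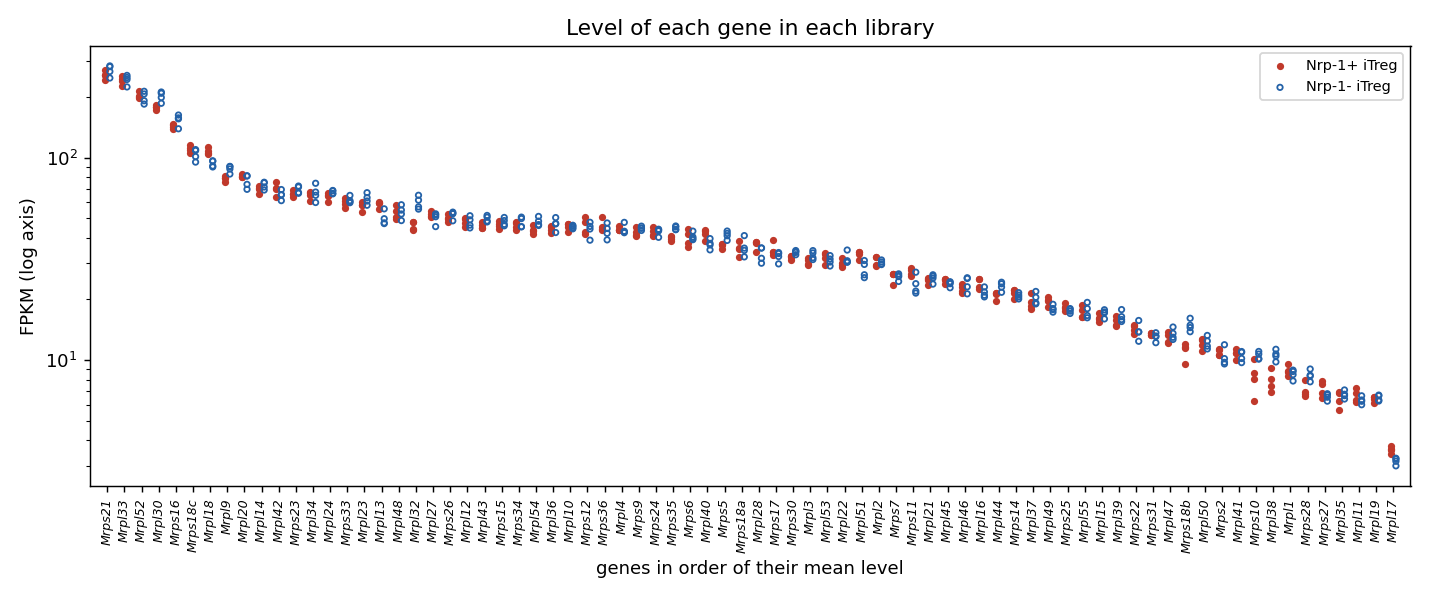
FPKM (log axis) of each of the 76 genes in each of the 8 libraries, in order of the mean level, with filled points for the 4 Nrp-1+ and open points for the 4 Nrp-1- iTreg libraries. Levels run from 262.8 FPKM for Mrps21 to 3.39 FPKM for Mrpl17 on average, and for most genes the points of both groups overlap.

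Summed over the 76 genes, mitochondrial ribosomal protein transcripts amounted to 3594, 3539, 3596 and 3486 FPKM in the Nrp-1+ libraries 1 to 4 and 3425, 3635, 3679 and 3718 FPKM in the Nrp-1- libraries. The group means were 3554 ± 52.3 and 3614 ± 130.5 FPKM (SD, n = 4 each), and the groups overlapped, with the lowest and the highest library both in Nrp-1- iTreg. The large subunit summed to 2281 ± 33.9 against 2309 ± 80.3 FPKM (SD, n = 4 each) and the small subunit to 1226 ± 25.9 against 1262 ± 49.3 FPKM. Within each group the library order of the sums was the inverse of that of the short RNA share. Taken as a share of the FPKM outside short RNA genes, the 76 genes held 0.519%, 0.524%, 0.528% and 0.518% in the Nrp-1+ and 0.502%, 0.509%, 0.512% and 0.510% in the Nrp-1- libraries, which did not overlap. Cytosolic ribosomal proteins held 31.4% to 32.3% of that total in Nrp-1+ and 33.0% to 35.2% in Nrp-1- iTreg. When these were left out of the total too, the 76 genes held 0.756% to 0.771% and 0.749% to 0.787%, and the groups overlapped. The direction of the summed level thus depended on the total to which it was set.

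Gene by gene, 20 of the 76 were called (26.3%), against 40.9% of all genes tested. Higher in Nrp-1+ iTreg were 7 (9.21%), against 20.9%, and lower 13 (17.1%), against 20%. Both shares were below those of all genes, and the difference between the family and other genes was not tested. The median log2 fold change was -0.02 over the 76 genes and -0.02 over all tested genes, and the median size of change, regardless of direction, was 0.07 against 0.12. In 14 genes, all among those called, the groups did not overlap (3 higher and 11 lower), against 39.5% of all genes (20.2% higher, 19.3% lower). The 56 genes not called had log2 fold changes from -0.11 (Mrpl23) to 0.15 (Mrpl28), and the 95% confidence intervals of these 56 genes lay between -0.23 and 0.30.
The split between directions depended on the scaling. With FPKM rescaled to a fixed sum outside short RNA genes, 15 of the 76 were higher and 5 lower, against 26.3% and 9.29% of all genes, and the median of the 76 was 0.04. Of the 13 lower genes, Mrpl32, Mrps18b, Mrpl30, Mrpl38 and Mrps5 were still called. The other 8 kept a lower mean by less, with adjusted p of 0.0606 (Mrps35) to 0.682 (Mrps30) by limma. Their log2 fold changes ran from -0.28 (Mrps10, -0.33 before) to -0.01 (Mrps30, -0.08 before). With cytosolic ribosomal proteins left out of that sum as well, a setting added after seeing the data, 8 were higher and 13 lower, against 21% and 18.1% of all genes. None of the 20 called genes was called in the opposite direction under any of the 20 alternatives (19 for Mrpl17, which is under the filter at 5 FPKM). Only Mrpl13 and Mrpl32 were called under all of them.

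**Figure D2:**
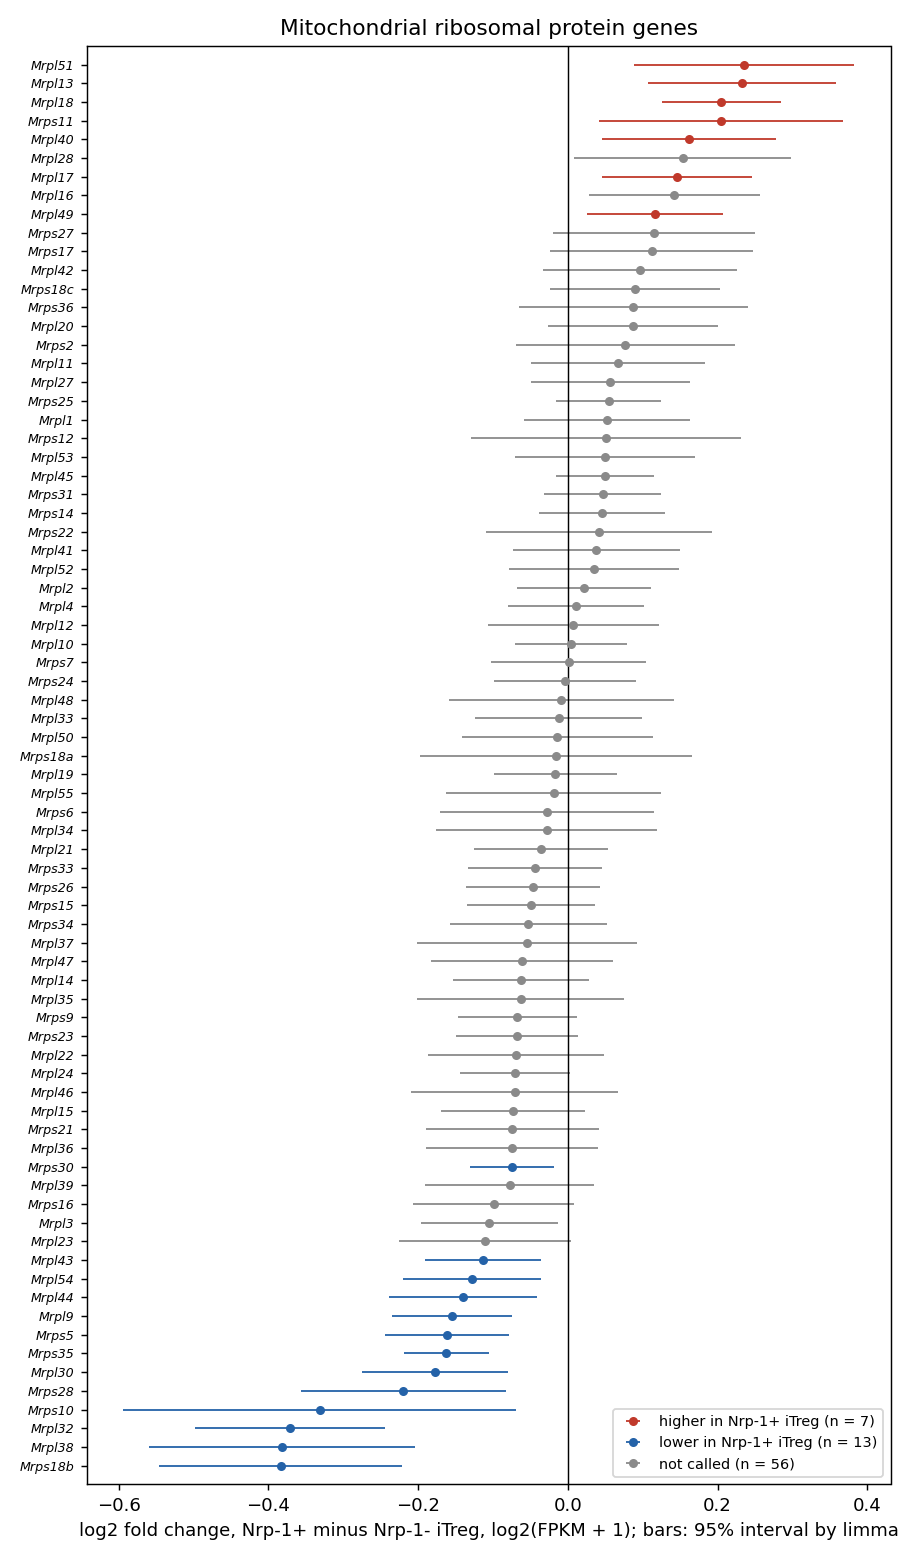
Log2 fold change of Nrp-1+ against Nrp-1- iTreg for each of the 76 genes, with 95% confidence intervals from limma and colours for genes called higher, called lower or not called. Values run from -0.38 (Mrps18b) to 0.24 (Mrpl51), with 13 genes called lower, 7 called higher and 56 not called, whose intervals lie between -0.23 and 0.30.

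Among the decreases, 2 were in small-subunit proteins counted here as specific to mitochondria, although Mrps18b has a bacterial relative. Mrps18b, one of several mammalian relatives of bacterial protein S18, had 9.56, 11.5, 11.5 and 11.9 FPKM in the Nrp-1+ libraries and 14.5, 16.1, 13.8 and 14.8 FPKM in the Nrp-1- libraries. Every Nrp-1+ library was below every Nrp-1- library, and the means of 11.1 ± 1.06 against 14.8 ± 0.957 FPKM gave a log2 fold change of -0.38 (SE 0.07, adjusted p = 0.00315 by limma). Mrps35 had 39.5, 38.9, 40.9 and 40.6 FPKM in Nrp-1+ and 45.9, 44.1, 44.0 and 45.4 FPKM in Nrp-1- iTreg, without overlap. Its log2 fold change was -0.16 (SE 0.02, adjusted p = 0.00120 by limma), and its adjusted p was 0.0606 when FPKM were rescaled to a fixed sum outside short RNA genes. Both genes were called with each single library left out.

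Small-subunit proteins with bacterial counterparts gave 3 decreases. Mrps5, which lines the channel by which messenger RNA enters, had 37.5, 37.2, 35.4 and 37.5 FPKM in Nrp-1+ and 39.0, 43.3, 42.2 and 41.1 FPKM in Nrp-1- iTreg. The groups did not overlap (log2 fold change -0.16, SE 0.04, adjusted p = 0.00797 by limma), and the call held without any single library. Mrps28 had 6.93, 7.92, 6.62 and 6.78 FPKM in Nrp-1+ and 9.02, 8.40, 8.32 and 7.80 FPKM in Nrp-1- iTreg. The groups overlapped, since Nrp-1+ replicate 2 was above the lowest Nrp-1- library (log2 fold change -0.22, SE 0.06, adjusted p = 0.0189 by limma), and without replicate 3 of Nrp-1+ iTreg the adjusted p was 0.0511. Mrps10 had 8.003, 10.1, 8.58 and 6.24 FPKM in Nrp-1+ and 10.1, 11.01, 10.1 and 10.7 FPKM in Nrp-1- iTreg. Here Nrp-1+ replicate 2 lay at the lower edge of the Nrp-1- values and replicate 4 far below them (log2 fold change -0.33, SE 0.11, adjusted p = 0.0479 by limma). This call was kept only without replicate 2 or without replicate 4 of Nrp-1+ iTreg. Without each of the other 6 libraries (Nrp-1+ replicates 1 and 3, Nrp-1- replicates 1 to 4) its adjusted p was 0.0713 to 0.105. Over all fits with a single library left out, its log2 fold change ran from -0.43 to -0.22.

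The large subunit gave 8 decreases, 3 of them in proteins with bacterial counterparts. Mrpl32, which a protease of the inner membrane has to cut before it can enter the ribosome, had 47.8, 43.7, 44.4 and 48.0 FPKM in Nrp-1+ and 55.6, 57.1, 61.6 and 65.1 FPKM in Nrp-1- iTreg. All Nrp-1+ libraries were lower, with a log2 fold change of -0.37 (SE 0.06, adjusted p = 0.00106 by limma), the smallest adjusted p of the 76 genes. Mrpl30, among the most abundant of the family, had 182.5, 176.9, 177.9 and 170.9 FPKM in Nrp-1+ and 185.5, 210.8, 198.0 and 207.9 FPKM in Nrp-1- iTreg. The groups were apart by a small gap (log2 fold change -0.18, SE 0.04, adjusted p = 0.0108 by limma), and with quantile normalization the adjusted p was 0.226. Mrpl9, whose promoter holds the NRF1 letters shown above, had 79.4, 75.4, 78.9 and 81.5 FPKM in Nrp-1+ and 87.9, 82.9, 90.5 and 90.2 FPKM in Nrp-1- iTreg (log2 fold change -0.15, SE 0.04, adjusted p = 0.00860 by limma). Corrected for GC content and transcript length, its log2 fold change was -0.19 and its adjusted p 0.0799 by limma. These 3 genes were called without any single library.

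Of the large-subunit proteins found in mitochondria only, 5 were called lower. Mrpl38 had 6.93, 7.42, 8.05 and 9.17 FPKM in Nrp-1+ and 11.3, 10.7, 10.5 and 9.78 FPKM in Nrp-1- iTreg. The groups did not overlap, the log2 fold change was -0.38 (SE 0.08, adjusted p = 0.00510 by limma), and the call held without any single library. Mrpl44, a relative of the RNA-cutting enzyme RNase III, had 21.4, 19.6, 21.2 and 21.4 FPKM in Nrp-1+ and 21.6, 24.2, 22.9 and 23.8 FPKM in Nrp-1- iTreg. The gap between its groups was narrow (log2 fold change -0.14, SE 0.04, adjusted p = 0.0316 by limma), and without Nrp-1+ replicate 2 or 3 or Nrp-1- replicate 2, 3 or 4 the adjusted p was 0.0542 to 0.0796. Mrpl54, Mrpl43 and Mrps30, a large-subunit protein despite its name, changed less, with log2 fold changes of -0.13, -0.11 and -0.08 (adjusted p of 0.0341, 0.0267 and 0.0387 by limma). Rescaled outside short RNA genes, these changes were -0.07, -0.05 and -0.01 (adjusted p of 0.264, 0.359 and 0.682 by limma). Corrected for GC content and length they were -0.06, -0.14 and -0.10 (adjusted p of 0.438, 0.172 and 0.0372). The 3 calls also turned on single libraries. Mrpl54 lost its call without Nrp-1+ replicate 1, 2 or 4 or Nrp-1- replicate 2 or 3 (adjusted p of 0.0636 to 0.0837). Mrpl43 lost it without Nrp-1+ replicate 2 or 4 or Nrp-1- replicate 1 or 4 (0.0636 to 0.0690), and Mrps30 without replicate 2, 3 or 4 of either group (0.0621 to 0.0942).

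Increases were found in 6 large-subunit proteins and 1 small-subunit protein. Mrpl51, specific to mitochondria, had 34.1, 34.3, 33.3 and 31.1 FPKM in Nrp-1+ and 25.5, 26.4, 29.6 and 31.0 FPKM in Nrp-1- iTreg. The lowest Nrp-1+ library was just above the highest Nrp-1- library (log2 fold change 0.24, SE 0.06, adjusted p = 0.0188 by limma), and without replicate 2 of Nrp-1- iTreg the adjusted p was 0.05001, just over the threshold. Mrpl13, with a bacterial counterpart, had 59.8, 59.7, 60.6 and 55.7 FPKM in Nrp-1+ and 49.9, 47.2, 55.8 and 47.6 FPKM in Nrp-1- iTreg. In this gene Nrp-1- replicate 3 was slightly above Nrp-1+ replicate 4, and apart from this pair the groups were separate (log2 fold change 0.23, SE 0.05, adjusted p = 0.0101 by limma). Mrpl18, whose bacterial counterpart binds 5S rRNA, had 105.5, 104.6, 113.2 and 107.6 FPKM in Nrp-1+ and 89.9, 90.9, 96.0 and 96.4 FPKM in Nrp-1- iTreg. Its groups did not overlap (log2 fold change 0.21, SE 0.03, adjusted p = 0.00204 by limma), and with quantile normalization the adjusted p was 0.0519. Mrpl13 and Mrpl18 were called without any single library.

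The other 4 increases each lost their call without several of the single libraries. Mrpl17, the lowest gene of the family, had 3.65, 3.42, 3.60 and 3.78 FPKM in Nrp-1+ and 3.16, 3.27, 3.00 and 3.24 FPKM in Nrp-1- iTreg, without overlap (log2 fold change 0.15, SE 0.04, adjusted p = 0.0276 by limma). Without Nrp-1+ replicate 1, 3 or 4 or Nrp-1- replicate 1 or 3 its adjusted p was 0.0572 to 0.0684. Mrpl40 had 43.5, 43.9, 38.5 and 41.8 FPKM in Nrp-1+ and 35.0, 37.7, 37.0 and 39.8 FPKM in Nrp-1- iTreg and overlapped (log2 fold change 0.16, SE 0.05, adjusted p = 0.0332 by limma). Its call was kept only without Nrp-1+ replicate 3 or Nrp-1- replicate 4, and without each of the other 6 libraries the adjusted p was 0.0613 to 0.0823. Mrpl49 had 18.2, 19.8, 19.6 and 20.4 FPKM in Nrp-1+ and 17.7, 17.2, 17.9 and 18.8 FPKM in Nrp-1- iTreg (log2 fold change 0.12, SE 0.04, adjusted p = 0.0459 by limma). Here too the groups overlapped, and the call was kept only without Nrp-1+ replicate 1 or Nrp-1- replicate 4 (adjusted p of 0.0860 to 0.110 otherwise). Mrps11, the small-subunit gene, had 28.6, 26.6, 27.7 and 25.9 FPKM in Nrp-1+ and 23.8, 21.4, 21.9 and 27.1 FPKM in Nrp-1- iTreg. As the exception, Nrp-1- replicate 4 stood among the Nrp-1+ libraries (log2 fold change 0.20, SE 0.07, adjusted p = 0.0496 by limma), and the call was kept only without that library (adjusted p of 0.0582 to 0.118 without each of the other 7).

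**Figure D3:**
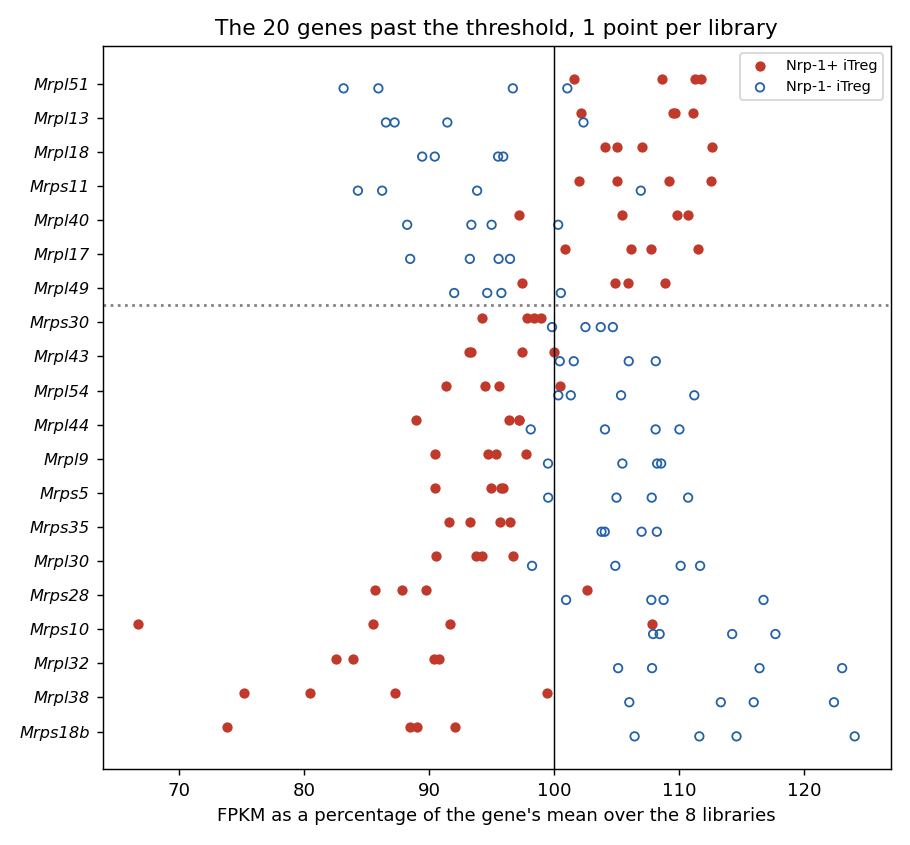
Level of the 20 called genes in each library, as a percentage of the gene's mean over the 8 libraries, with filled points for Nrp-1+ and open points for Nrp-1- iTreg. The groups are apart in 14 genes, such as Mrpl32 and Mrpl18, and overlap in the other 6 (Mrps28, Mrpl54, Mrpl49, Mrpl40, Mrps11 and Mrpl13).

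By position in the ribosome, the large subunit had 6 genes higher and 8 lower of 49, and the small subunit 1 higher and 5 lower of 26. These are 12.2% and 16.3% of the large and 3.85% and 19.2% of the small subunit, against 20.9% and 20% of all genes, and the subunits were not tested against each other. After rescaling outside short RNA genes, 11 were higher and 3 lower in the large and 4 higher and 2 lower in the small subunit, against 26.3% and 9.29% of all genes. Leaving out single libraries gave 3 to 6 higher and 4 to 8 lower in the large subunit. It had 3 higher without Nrp-1+ replicate 4 or Nrp-1- replicate 1 or 3, and 4 without Nrp-1+ replicate 1 or 2 or Nrp-1- replicate 2. It had 4 lower without Nrp-1+ replicate 2, and 5 without Nrp-1+ replicate 4 or Nrp-1- replicate 2 or 4. The small-subunit increase, that of Mrps11, lost its call in settings that included the GC and length correction, size factors, quantile normalization, no filter, no trend and leaving out single libraries. Large-subunit proteins with bacterial counterparts had 3 higher and 3 lower of 30 (median log2 fold change -0.02), and those specific to mitochondria 3 higher and 5 lower of 19 (median -0.01). In the small subunit the conserved proteins had 1 higher and 3 lower of 16 (median -0.02) and the specific ones 2 lower of 10 (median -0.05). Of the relatives of bacterial S18, Mrps18b and Mrps18a were counted as specific and Mrps18c as conserved. The last gene, Mrps36, was not called (log2 fold change 0.09); its product is now assigned to the oxoglutarate dehydrogenase complex. A further 7 subunits carry other names, and 0 of them were called by limma, with 1 (Ict1) at an unadjusted p under 0.05. Ict1, a peptide hydrolase built into the large subunit, was at 68.2 ± 1.64 against 73.4 ± 4.11 FPKM (adjusted p = 0.0759 by limma). Dap3, a GTP-binding protein of the small subunit first described in cell death, was at 26.3 ± 0.622 against 26.1 ± 0.657 FPKM (adjusted p = 0.835). Chchd1 was at 63.1 ± 3.10 against 58.9 ± 4.11 FPKM (adjusted p = 0.174) and Ptcd3 at 15.9 ± 0.785 against 16.8 ± 0.326 FPKM (adjusted p = 0.138), both of the small subunit. Aurkaip1, another small-subunit protein, was at 68.1 ± 3.53 against 67.0 ± 4.38 FPKM (adjusted p = 0.758). In the large subunit, Gadd45gip1 was at 19.7 ± 1.14 against 20.7 ± 0.811 FPKM (adjusted p = 0.264) and Mrp63 at 12.8 ± 0.384 against 12.7 ± 0.713 FPKM (adjusted p = 0.820). These genes overlapped between the groups, as most of the 76 did.

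Genes that serve the mitoribosome from outside were counted in the same fit. Of 29 tested genes for its assembly, 2 were higher (6.9%) and 10 lower (34.5%), against 20.9% and 20% of all genes (median log2 fold change -0.10). After rescaling outside short RNA genes, 3 were higher and 5 lower, against 26.3% and 9.29%. Gtpbp6, which helps to recycle and assemble mitoribosomes, had the largest change of this list, with 9.59, 9.41, 9.58 and 11.9 FPKM in Nrp-1+ and 15.1, 13.7, 11.5 and 15.04 FPKM in Nrp-1- iTreg. Only Nrp-1+ replicate 4 overlapped with the Nrp-1- libraries (log2 fold change -0.42, SE 0.10, adjusted p = 0.0104 by limma). Tfb1m, which methylates the rRNA of the small subunit, had 6.76, 6.51, 6.97 and 5.41 FPKM in Nrp-1+ and 5.43, 4.19, 4.84 and 4.44 FPKM in Nrp-1- iTreg, the opposite direction (log2 fold change 0.37, SE 0.09, adjusted p = 0.0103 by limma). Its lowest Nrp-1+ library lay just below the highest Nrp-1- library. Rbfa, which acts in the maturation of the small subunit, had 40.7, 39.8, 42.5 and 43.1 FPKM in Nrp-1+ and 52.4, 51.5, 51.0 and 54.1 FPKM in Nrp-1- iTreg. The groups of Rbfa were far apart (log2 fold change -0.32, SE 0.03, adjusted p = 0.000102 by limma), with an adjusted p below that of each of the 76 ribosomal protein genes.

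Of 16 mitochondrial translation factors and activators, 2 were called, both lower (12.5%, against 20% of all genes, median log2 fold change -0.09), and at an unadjusted p under 0.05 1 was higher and 2 lower by limma. The lower genes were 1 instead of 2 without Nrp-1+ replicate 4 or any single Nrp-1- library. After rescaling outside short RNA genes the only call was 1 higher gene, against 26.3% higher and 9.29% lower of all genes. The 2 lower genes were Lrpprc, which stabilises mitochondrial messenger RNAs, at 12.8 ± 0.333 against 14.6 ± 0.885 FPKM (adjusted p = 0.0112 by limma), and Guf1, an elongation factor, at 4.39 ± 0.275 against 4.91 ± 0.0712 FPKM (adjusted p = 0.0408 by limma). In both the groups did not overlap. Of 10 genes for maintaining and transcribing mitochondrial DNA, 1 was higher and 3 lower (40% called, against 40.9% of all genes, median -0.08), and after that rescaling 2 were higher and 2 lower, against the same 26.3% and 9.29%. The higher genes of this list were 2 without Nrp-1+ replicate 4 or Nrp-1- replicate 3. Mgme1, a nuclease of mitochondrial DNA replication, rose (5.24 ± 0.430 against 4.02 ± 0.412 FPKM, adjusted p = 0.00986 by limma), whereas Polg2, the accessory subunit of the mitochondrial DNA polymerase, fell (7.99 ± 0.704 against 9.50 ± 0.610 FPKM, adjusted p = 0.0236 by limma). Peo1, the Twinkle helicase, fell too (5.51 ± 0.326 against 6.52 ± 0.0902 FPKM, adjusted p = 0.00455 by limma).

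Of 7 tested regulators of nuclear genes for mitochondrial proteins, 1 was called (14.3%, against 40.9% of all genes). This was Yy1, with 61.5, 61.0, 62.2 and 60.2 FPKM in Nrp-1+ and 65.6, 64.7, 63.4 and 63.5 FPKM in Nrp-1- iTreg (log2 fold change -0.07, SE 0.02, adjusted p = 0.0250 by limma). Its groups did not overlap, at a change smaller than that of any called ribosomal protein gene. Nrf1 was at 23.4 ± 1.04 against 24.8 ± 0.610 FPKM (adjusted p = 0.0853), Gabpa at 21.0 ± 0.755 against 21.5 ± 0.707 FPKM (adjusted p = 0.550) and Gabpb1 at 27.2 ± 2.56 against 24.4 ± 2.15 FPKM (adjusted p = 0.166 by limma). Myc, which drives cell growth and activates many genes of this kind, was at 57.4 ± 0.514 against 56.5 ± 2.27 FPKM (adjusted p = 0.537), and Esrra at 11.7 ± 1.30 against 12.9 ± 0.602 FPKM (adjusted p = 0.170 by limma). Pprc1, a coactivator of the PGC-1 family, had 3.45, 3.40, 3.57 and 3.54 FPKM in Nrp-1+ and 3.85, 3.67, 3.86 and 3.89 FPKM in Nrp-1- iTreg, without overlap, and missed the threshold (adjusted p = 0.0580 by limma). Its relatives Ppargc1a and Ppargc1b were under the filter, with 0.0051 and 0.747 FPKM in Nrp-1+ and 0.0072 and 0.946 FPKM in Nrp-1- iTreg.

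The 2 nearest families of protein complexes were counted beside the mitoribosome. Of 78 tested genes for the respiratory chain and ATP synthase, the complexes that receive the products of mitochondrial translation, 5 were higher (6.41%) and 8 lower (10.3%), against 20.9% and 20% of all genes (median log2 fold change -0.0020). Rescaling outside short RNA genes gave 17 higher and 4 lower, against 26.3% and 9.29% of all genes, and leaving out single libraries gave 2 to 4 higher (2 without Nrp-1+ replicate 3 or Nrp-1- replicate 1, 3 without Nrp-1+ replicate 2 or Nrp-1- replicate 3) and 6 to 11 lower. Their summed level was 16765 ± 455.3 FPKM in Nrp-1+ and 17051 ± 852.0 FPKM in Nrp-1- iTreg (SD, n = 4 each), which overlapped as that of the mitoribosome did. Of 83 tested cytosolic ribosomal protein genes, 59 were called, all lower (71.1%, median -0.17). This count depended on the setting, with 49 lower and 1 higher after rescaling outside short RNA genes and 0 called by limma after quantile normalization, where 1 was lower at an unadjusted p under 0.05. Among the 76 mitochondrial genes, quantile normalization gave 2 higher and 12 lower, against 16.9% and 19.3% of all genes. Differences between these lists were not tested.

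**Figure D4:**
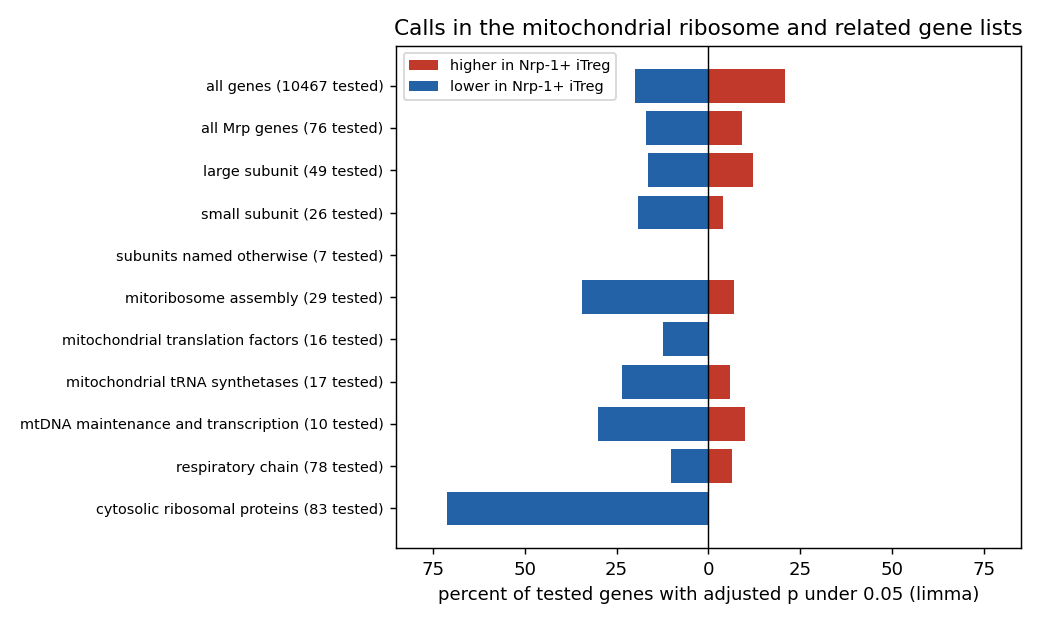
Percentage of the tested genes of each list that were called higher or lower in Nrp-1+ iTreg by limma, with all genes tested for comparison. Mitochondrial ribosomal protein genes (26.3% called) lie below all genes (40.9%), and cytosolic ribosomal protein genes (71.1%, all lower) above them.

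Many of the 76 genes start close to another gene. Neighbours could be looked for only in the 67 genes with a promoter entry. In 26 of these 67 another gene started within 1000 bases on the opposite strand and ran the other way. Of these 26, 10 were called. The 67 held 6 genes called higher and 9 called lower, and 40.9% of all genes were called. In 24 distinct pairs the neighbour was tested too, and 10 neighbours were called. Both genes were called in 4 pairs, 3 times in the same direction, which was not tested against other pairs. Mrpl18 and Tcp1, a chaperonin subunit whose start lies 238 bases away, were both higher (log2 fold changes 0.21 and 0.19). Mrpl51 and Ncapd2, a condensin subunit of dividing cells 614 bases away, were both higher, at very different sizes (0.24 and 0.88). Mrpl43 and Peo1 (116 bases) were both lower (-0.11 and -0.21). Mrpl49 was higher and Fau, which encodes a cytosolic ribosomal protein 192 bases away, lower (0.12 and -0.24). Mrps11 and Mrpl46 start only 42 bases apart, and Mrps11 was called (0.20) while Mrpl46 was not (-0.07, adjusted p = 0.380 by limma). Mrpl32 was lower (-0.37) beside Psma2, a proteasome subunit 205 bases away that was not called (-0.03, adjusted p = 0.489 by limma).

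In the GENCODE M21 annotation, exons of 32 of the 76 genes overlap an exon of another gene, in 8 cases on the same strand. Since the use of strand in counting is not given, reads in such stretches cannot be assigned with certainty. Of the 20 called genes 10 are affected, which are Mrpl9, Mrpl13, Mrpl18, Mrpl43, Mrpl44, Mrpl49, Mrpl51, Mrps11, Mrps18b and Mrps30, so their values are uncertain to that extent. Mrpl18 overlaps Tcp1, Mrpl43 overlaps Peo1 and Mrps11 overlaps Mrpl46, the neighbours named above. The decreases of Mrpl32, Mrpl38, Mrps35, Mrps5 and Mrpl30, which were called without any single library, are in genes with no such overlap. Among the 76 genes, the log2 fold change did not follow the level (Spearman rho -0.07), the transcript length (0.01) or the GC content (-0.06), given as descriptions across genes that share libraries.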

How the data were processed

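RNA sequencing of 4 Nrp-1+ and 4 Nrp-1- iTreg libraries was analysed, with groups and replicate numbers taken from the labels. The authors worked in the CLC Genomics Workbench, computed FPKM by Cufflinks and deposited them in 1 table, with a row for each gene symbol. The submitters' processing notes name GRCm38 and mm10, and the aligner and annotation are not given in the sources used here. The deposited FPKM were put on the scale log2(FPKM + 1), and lmFit and eBayes of limma 3.58.1 were applied in R 4.3.3, with an intensity trend. Genes with a mean of at least 1 FPKM over the 8 libraries (10467 of 23361) were fitted and p-values adjusted over all of them. The members of the family, the lists, the marker genes and the tests were chosen with earlier results of these data known. Cytosolic ribosomal proteins were taken by symbol, without the Rps6k kinase genes.

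The genes named were, among those called, up to 10 members with the largest increase (7 were called) and the 10 with the largest decrease, the 5 highest and 5 lowest in level, the subunits named otherwise, the regulators, and the 3 called genes with the largest change in the assembly, translation factor and mitochondrial DNA lists. Mrpl54, Mrpl43, Mrps30, Mrpl23, Mrpl28, Mrps36, Mrpl46 and the neighbouring genes were named after their values were seen. The fit was repeated with pseudocounts of 0.1 and 0.5, without a filter, with a filter at a mean of 5 FPKM, with median-of-ratios size factors, quantile normalization, FPKM rescaled to a fixed sum outside 797 short RNA genes, eBayes without trend, a replicate block, a spline correction for GC and length (5 degrees of freedom, values for 99.4% of tested genes), block and correction together, and each library left out. Rescaling that also left out cytosolic ribosomal proteins was added after seeing the data. Depth was read from the steps of FPKM in low genes and, relative to the first library, ranged from 0.810 to 1.24; numbers of reads were not used and no counting intervals are given. Lengths, GC content and exon overlaps came from GENCODE M21, promoters from RefSeq. The fit was tested on simulated data. Summaries and plots were made in Python 3.11.15 (pandas 2.3.3, numpy 2.4.6, matplotlib 3.10.9, scipy 1.17.1).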

Additional observations from a re-analysis of the deposited data

Results flagged for a closer look

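Of 104 groups of 4 libraries looked at, 9 held a value far from the other 3, where the gap took most of the range of the group and chance gives about 1 in 20, or 5.2. Among the ribosomal proteins, Mrps5 was low in Nrp-1+ replicate 3, with 35.4 FPKM where the other libraries of the group had 37.2 to 37.5 FPKM. Mrpl44 was low in Nrp-1+ replicate 2, with 19.6 FPKM where the others had 21.2 to 21.4 FPKM. Both of these low values lie on the side of the gene's difference between the groups. Of the subunits named otherwise, Dap3 was high in Nrp-1+ replicate 1, with 27.2 FPKM beside 25.9 to 26.02 FPKM, and so was Chchd1, with 67.7 FPKM beside 61.4 to 61.9 FPKM.

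Gtpbp6 was high in Nrp-1+ replicate 4, with 11.9 FPKM beside 9.41 to 9.59 FPKM. In Nrp-1- replicate 2, 3 genes stood apart. These were Lrpprc with 13.3 FPKM (14.96 to 15.2 in the others), Pprc1 with 3.67 FPKM (3.85 to 3.89) and Guf1 with 5.01 FPKM (4.86 to 4.88). Ppargc1a had 0.0288 FPKM in Nrp-1- replicate 3 and was listed at 0 in the other 3, a level far below the filter.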

How the results depend on the processing

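Of the 499 values of the 25 named ribosomal protein genes under the alternatives, 407 kept their direction and side of the threshold, 80 lost the threshold, 2 gained it and 10 changed sign. For the 22 named related genes these counts were 391, 28, 5 and 13 of 437. The sign changed only in genes that were not called. The counts of 7 higher and 13 lower members depended on the setting. With the GC and length correction 3 were higher and 10 lower, against 16.6% and 17.3% of all genes. Quantile normalization gave 2 higher and 12 lower, against 16.9% and 19.3% of all genes. Without a filter 4 were higher and 11 lower. Over all genes, with more genes tested in that setting, the higher calls rose in number and the lower calls fell. With the replicate block there were 5 higher and 10 lower, against 18.4% and 16% of all genes, and 13 of the 20 called genes were still called in the same direction. Same-numbered libraries did not deviate together (mean correlation of deviations -0.26, with 0 of 8 libraries closest to their own number), so the numbers were not taken as pairs. With block and correction together there were 1 higher and 4 lower, and 1344 higher and 1055 lower of all genes. Rescaling outside short RNA genes gave 15 higher and 5 lower, a median of 0.042 for the family, and 2754 higher and 973 lower of all genes. It shifted the median of all genes by less than 0.1, and the 7 higher and 5 of the 13 lower genes were still called. Leaving out single libraries gave 3 to 7 higher and 9 to 13 lower members, a median of -0.045 to -0.0055 (lowest without replicate 1 of Nrp-1- iTreg), and 1953 to 2046 higher and 1770 to 1912 lower of all genes. The fewest higher members, 3, were found without replicate 4 of Nrp-1+ or replicate 1 or 3 of Nrp-1- iTreg, and 4 without replicate 1 or 2 of Nrp-1+ iTreg. The cause was not tested.

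Log2 fold changes that changed sign were near 0. With the GC and length correction, alone and with the replicate block, they were 0.0072 and 0.0072 for Mrps21, -0.00145 and -0.00145 for Aurkaip1 and -0.011 and -0.011 for Mrp63. With quantile normalization they were 0.0086 for Mrpl33, -0.00348 for Dap3 and -0.00472 for Mrp63. With rescaling outside short RNA genes they were 0.0501 for Mrpl33, 0.038 for Mrpl19 and 0.033 for Gabpa. With single libraries left out they ranged from -0.051 to 0.018 for Mrpl33, from -0.00032 to 0.069 for Mrpl52, from -0.031 to 0.0032 for Mrpl19, from -0.0083 to 0.023 for Dap3, from -0.018 to 0.053 for Aurkaip1 and from -0.0063 to 0.049 for Mrp63. Of 280 counts (14 counts, those of higher and lower genes in the subunits and lists, under 20 alternatives), 211 stayed within 1.5 times, 58 were lower and 11 higher. Depth was not given, and 4 libraries a group limit how small a change can be called.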
